A study of Mus musculus with 6 samples.

Results

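The 9 genes described here encode the machinery that takes calcium up into the sarcoplasmic reticulum of muscle, stores it there or buffers it in the cytosol: the pumps Atp2a1 and Atp2a2, the calsequestrins Casq1 and Casq2, the pump inhibitors Sln and Pln, the buffer Pvalb, and the luminal proteins Srl and Hrc. They were chosen by gene symbol from the 19938 genes measured, and all 9 were found, each with 1 transcript cluster (the set of probes that reads a gene). Expression was measured on Affymetrix 1.0 ST arrays in soleus, a calf muscle used for posture that holds many slow fibres. The 3 groups of 2 arrays were suspension with electroacupuncture, suspension alone and control. Hindlimb suspension raises the rear of the animal and takes the load off its leg muscles, and electroacupuncture passes current through acupuncture needles. All samples were from male C57BL/6 mice of 8 weeks; neither the length of suspension nor the needle sites are given in the sources used here. Hybridizations were done in duplicate, and nothing in the labels ties the 2 arrays of a group to different animals, so every p-value below measures the spread between arrays, which may be technical.

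In a muscle fibre, each contraction begins with calcium released from the sarcoplasmic reticulum and ends when the calcium pump carries it back. Fast fibres use the pump encoded by Atp2a1, the calsequestrin encoded by Casq1 and the soluble buffer parvalbumin (Pvalb), and relax quickly. Slow fibres use the pump encoded by Atp2a2, which the heart shares, and carry Casq2, the calsequestrin that the heart also uses, beside Casq1. Sarcolipin (Sln) and phospholamban (Pln) are small membrane proteins that bind the pump and restrain it.

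Against control, the slow and cardiac calsequestrin gene Casq2 fell 2.55-fold in suspension with electroacupuncture and 2.4-fold in suspension. The fast-fibre buffer gene Pvalb rose 2.5-fold in suspension with electroacupuncture and 2.83-fold in suspension. The fast pump gene Atp2a1 lay 1.42-fold and 1.45-fold above control in the same order, without passing the test. The slow pump gene Atp2a2, the fast calsequestrin gene Casq1 and the luminal genes Srl and Hrc stayed within 0.22 log2 units of control in both groups. Thus 2 of the 9 genes passed an adjusted p of 0.05 against control in each group, where 1.05% of all genes passed for suspension and 1.03% for suspension with electroacupuncture. None passed between the electroacupuncture and the suspension arrays. The 9 genes were chosen with earlier results of these data known. The shares over all genes, here and below, therefore describe the set and do not test it. Both comparisons with control use the same 2 control arrays, so they are not independent of each other. Signals are RMA log2 values, on which a difference of 1 is 2-fold, differences are given with their standard error (SE) from limma, and p-values are adjusted over all 19938 genes by the method of Benjamini and Hochberg.

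**Figure D1:**
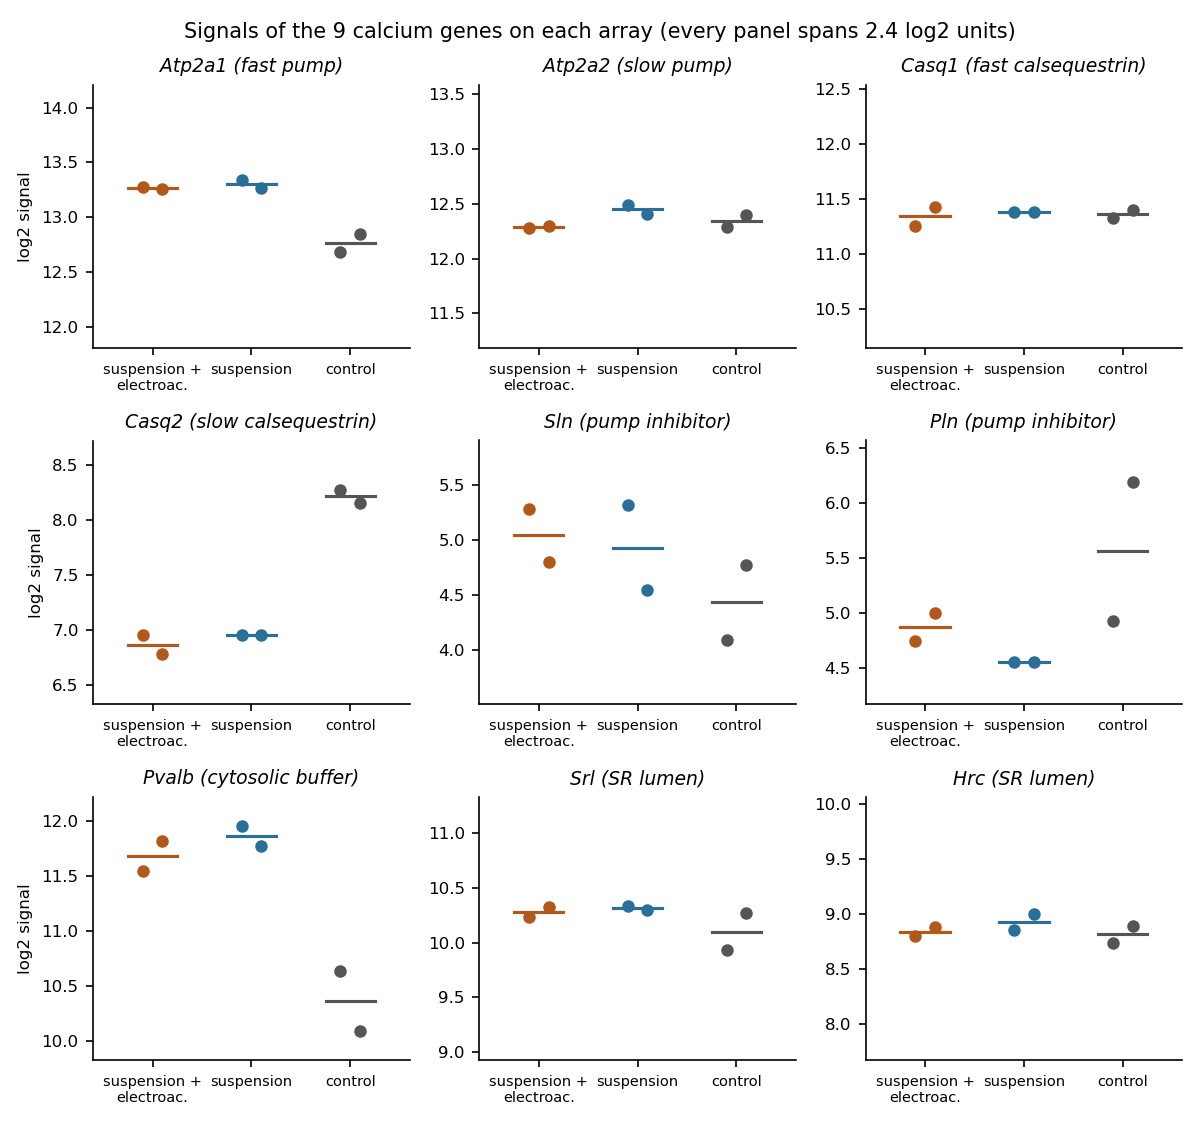
Log2 signal of each of the 9 genes on each of the 6 arrays, by group; points are arrays and bars are group means. Casq2 sits below 7 on all 4 suspended arrays and above 8 on both control arrays, Pvalb and Atp2a1 sit higher on the suspended arrays, and Sln and Pln spread widely within groups.

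The promoters of the 2 genes that passed are shown because Casq2 and Pvalb moved in opposite directions, with that of Casq1, the calsequestrin gene whose signal did not pass. The RefSeq windows of build GRCm38.p6 run from 250 bases before to 50 bases after a transcript start and were found for 6 of the 9 genes. They are Casq2 at chr3:102086165-102086464 on the plus strand, Casq1 at chr1:172219846-172220145 on the minus strand, and the upstream start of Pvalb at chr15:78206351-78206650 on the minus strand. Capitals mark the motif CANNTG, the E-box bound by myogenic factors, and the MEF2 motif, searched on both strands.
Casq2: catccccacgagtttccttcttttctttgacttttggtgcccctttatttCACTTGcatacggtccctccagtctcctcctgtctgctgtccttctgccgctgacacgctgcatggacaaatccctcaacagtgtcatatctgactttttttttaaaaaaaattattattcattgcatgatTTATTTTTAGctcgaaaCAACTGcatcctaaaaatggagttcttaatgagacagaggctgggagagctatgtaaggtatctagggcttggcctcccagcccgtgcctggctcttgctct
Casq1: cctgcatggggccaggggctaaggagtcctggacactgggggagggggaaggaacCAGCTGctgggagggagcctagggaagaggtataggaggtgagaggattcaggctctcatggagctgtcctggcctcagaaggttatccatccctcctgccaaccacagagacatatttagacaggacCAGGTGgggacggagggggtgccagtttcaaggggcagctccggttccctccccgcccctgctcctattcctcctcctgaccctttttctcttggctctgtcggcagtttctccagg
Pvalb: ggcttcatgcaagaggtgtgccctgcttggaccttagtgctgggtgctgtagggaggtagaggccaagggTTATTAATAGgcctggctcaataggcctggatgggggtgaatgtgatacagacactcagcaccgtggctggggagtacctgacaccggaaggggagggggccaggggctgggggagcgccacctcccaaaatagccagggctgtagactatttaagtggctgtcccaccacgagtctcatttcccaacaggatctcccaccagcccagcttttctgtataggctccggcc
The Casq2 window held 1 MEF2 match, at position -69 from the transcript start, and 2 E-boxes. The upstream Pvalb window held 1 MEF2 match, at position -180, and 0 E-boxes. Casq1 held 2 E-boxes and 0 MEF2 matches. Of 32851 promoter windows of this length, 3.19% held a MEF2 match and 72.3% an E-box, and the marked motifs do not overlap each other. The second Pvalb window, at another start, held 0 MEF2 matches and 2 E-boxes. These matches describe the sequence only.

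Of the pumps, which return calcium to the reticulum, Atp2a1 had signals of 13.28 and 13.26 in suspension with electroacupuncture, 13.34 and 13.27 in suspension, and 12.68 and 12.85 in control. Every suspended array was above both control arrays. The difference was 0.54 ± 0.14 for suspension minus control (adjusted p = 0.121, limma) and 0.50 ± 0.14 for suspension with electroacupuncture minus control (adjusted p = 0.154). With both suspended groups set against control it was 0.52 ± 0.12 (adjusted p = 0.0648), with a 95% interval from 0.25 to 0.79. That comparison lay on the other side of the threshold with quantile normalization again (adjusted p = 0.0273), cyclic loess (0.024), genes at or above the median signal alone (0.0363) and without control array 2 (0.0283). Atp2a1 was close to the top of the scale, where the highest signal of any gene on an array ran from 13.72 to 13.99, and whether this compressed its difference was not tested.

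Atp2a2 had signals of 12.28 and 12.30 in suspension with electroacupuncture, 12.49 and 12.41 in suspension, and 12.29 and 12.40 in control. The whole range over the 6 arrays was 0.21; the suspension arrays stood just above the control arrays and the electroacupuncture arrays overlapped them. Its differences from control were 0.10 ± 0.13 for suspension (adjusted p = 0.821) and -0.05 ± 0.13 for suspension with electroacupuncture (adjusted p = 0.927). The 95% interval for suspension minus control, from -0.19 to 0.40, holds falls and rises of that size.

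The calsequestrins, which bind calcium inside the reticulum near the release channel, differed from each other. Casq2 had signals of 6.95 and 6.78 in suspension with electroacupuncture, 6.95 and 6.95 in suspension, and 8.27 and 8.16 in control. All 4 suspended arrays lay far below both control arrays, and the range over the 6 arrays was 1.49. The difference was -1.27 ± 0.13 for suspension minus control (adjusted p = 0.00618), -1.35 ± 0.13 for suspension with electroacupuncture minus control (adjusted p = 0.00764) and -1.31 ± 0.11 for both suspended groups minus control (adjusted p = 0.00224). In whole muscle, fewer cells of a type and less RNA per cell cannot be told apart. Casq1 had signals of 11.26 and 11.43 in suspension with electroacupuncture, 11.38 and 11.38 in suspension, and 11.33 and 11.40 in control. The groups overlapped, with differences from control of 0.02 ± 0.13 and -0.02 ± 0.13 for suspension and for suspension with electroacupuncture (adjusted p = 0.979 and 0.978). The 95% interval for suspension minus control ran from -0.28 to 0.31.

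The fast and slow isoforms were also compared within each array, by the change of their log2 ratio, which needs no comparison of levels between probe sets. The ratio of Atp2a1 to Atp2a2 lay 0.57 and 0.54 above the control mean on the electroacupuncture arrays and 0.43 and 0.44 above it on the suspension arrays, against -0.03 and 0.03 on the control arrays. That is a ratio 1.47-fold and 1.35-fold that of control. The ratio of Casq1 to Casq2 lay 1.17 and 1.5 above the control mean on the electroacupuncture arrays and 1.28 and 1.28 above it on the suspension arrays, against -0.09 and 0.09 on the control arrays. The ratio was 2.52-fold and 2.43-fold that of control. In both pairs every suspended array had a higher fast-to-slow ratio than either control array. Of the 4 genes in these ratios, Casq2 alone passed the test against control. Atp2a2 was 0.16 lower on the electroacupuncture than on the suspension arrays, with the groups apart, which enters the pump ratio. No test is given for these ratios, which were formed over chosen genes.

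**Figure D2:**
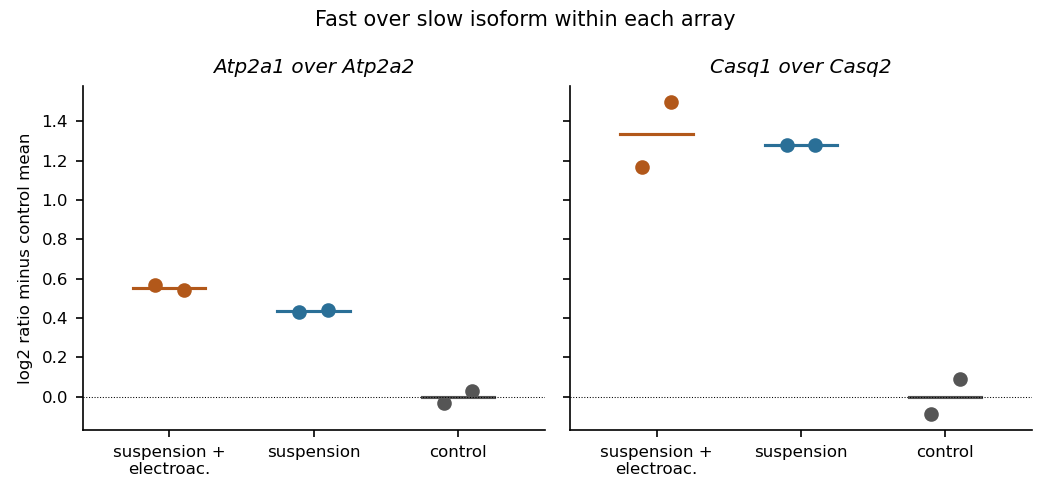
Log2 ratio of the fast to the slow isoform within each array, minus the mean of the control arrays, for the pumps (left) and the calsequestrins (right); points are arrays and bars are group means. The pump ratio lies from 0.43 to 0.57 above control on the suspended arrays and the calsequestrin ratio from 1.17 to 1.5.

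Pvalb, whose product binds calcium in the cytosol of fast fibres, had signals of 11.55 and 11.82 in suspension with electroacupuncture, 11.96 and 11.77 in suspension, and 10.64 and 10.09 in control. All suspended arrays were above both control arrays, which differed from each other by 0.55. The difference was 1.5 ± 0.19 for suspension minus control (adjusted p = 0.0145), 1.32 ± 0.19 for suspension with electroacupuncture minus control (adjusted p = 0.0212) and 1.41 ± 0.17 for both suspended groups minus control (adjusted p = 0.00612). Parvalbumin is also made by some neurons. The mean signal of 5 neuron markers was 3.54 and 3.55 in suspension with electroacupuncture, 3.39 and 3.51 in suspension, and 3.88 and 3.66 in control. Between the control arrays the one with more Pvalb signal also had the higher neuron mean. Between the suspension arrays the one with more Pvalb signal had the lower neuron mean, and the electroacupuncture arrays had nearly equal neuron means. Of the 5 markers 3 had a mean above background, none passed against control, and 3 of 5 lay below control with electroacupuncture and 5 of 5 in suspension. The part of neurons in the Pvalb values was not tested.

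The pump inhibitors had low signals and wide spreads. Sln had signals of 5.28 and 4.80 in suspension with electroacupuncture, 5.32 and 4.54 in suspension, and 4.09 and 4.77 in control. The suspension and control groups overlapped. Its differences from control were 0.50 ± 0.31 for suspension (adjusted p = 0.562) and 0.61 ± 0.31 for suspension with electroacupuncture (adjusted p = 0.473). With an array left out they ran from 0.11 (without suspension array 1) to 0.89 (without suspension array 2) for suspension, and from 0.27 (without control array 1) to 0.95 (without control array 2) with electroacupuncture. In each pair of duplicates the array with the higher mean of 7 macrophage markers had the higher Sln signal. That mean was 6.25 and 5.97 in suspension with electroacupuncture, 6.09 and 5.33 in suspension, and 5.37 and 5.74 in control, and all 7 markers had a mean above background. Their part in the Sln values was not tested.

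Pln had signals of 4.74 and 5.0 in suspension with electroacupuncture, 4.55 and 4.55 in suspension, and 4.93 and 6.19 in control. Control array 2 stood 1.26 above control array 1. The difference was -1.01 ± 0.34 for suspension minus control (adjusted p = 0.241) and -0.69 ± 0.34 for suspension with electroacupuncture minus control (adjusted p = 0.45). Control array 2 carried these values. Without control array 1 the difference for suspension was -1.64 (adjusted p = 0.012), and without control array 2 it was -0.37. For suspension with electroacupuncture it was -1.32 (adjusted p = 0.026) without control array 1 and -0.06 without control array 2. The mean of 6 adipocyte markers was 6.79 and 6.66 in suspension with electroacupuncture, 6.36 and 6.13 in suspension, and 6.11 and 7.87 in control, and so was also highest on control array 2. Slow-fibre markers had their highest mean on that array too. Smooth muscle also makes phospholamban, and 6 of its markers had means of 7.17 and 7.07 in suspension with electroacupuncture, 7.24 and 7.04 in suspension, and 7.13 and 7.38 in control. That mean mixes opposite directions: in each suspended group 2 of the 6 lay above control and 4 below, and none passed. Des, of mean signal 11.94, differed by 0.45 in suspension and 0.46 with electroacupuncture. Acta2, of mean signal 8.56, differed by -0.52 and -0.45. The part of these cells in the Pln values was not tested.

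The luminal proteins showed small differences. Srl, which encodes sarcalumenin, a calcium-binding glycoprotein of the reticulum, had signals of 10.23 and 10.32 in suspension with electroacupuncture, 10.33 and 10.30 in suspension, and 9.93 and 10.27 in control. Control array 1 was the low one, and the difference for suspension minus control was 0.22 ± 0.15 (adjusted p = 0.612). Hrc, the histidine-rich calcium-binding protein, had signals from 8.74 to 9.0 on all 6 arrays, and a difference of 0.12 ± 0.13 for suspension minus control (adjusted p = 0.789). Neither passed in any comparison.

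**Figure D3:**
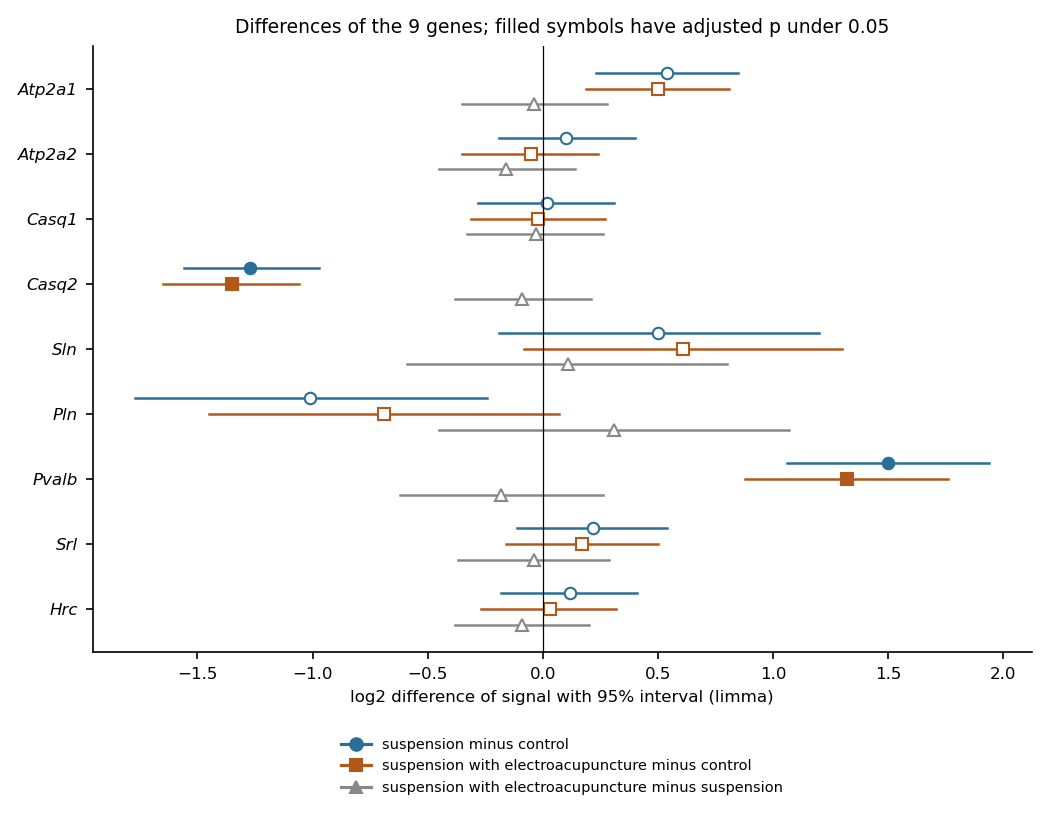
Log2 differences of the 9 genes with 95% intervals from limma, for suspension minus control, suspension with electroacupuncture minus control and suspension with electroacupuncture minus suspension; filled symbols have an adjusted p under 0.05. Casq2 and Pvalb are filled in both comparisons with control, and all 9 intervals between the suspended groups hold 0.

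The comparison of suspension with electroacupuncture against suspension alone asks whether treatment moved these genes in unloaded muscle. None of the 9 passed in limma, 0 of the 9 had an unadjusted p under 0.05, and 0 of the 9 passed under any of the other settings or with an array left out. Over all genes 0% passed and 3.07% had an unadjusted p under 0.05. The difference was -0.09 ± 0.13 for Casq2 (95% interval -0.38 to 0.21), -0.18 ± 0.19 for Pvalb (-0.62 to 0.26) and -0.04 ± 0.14 for Atp2a1 (-0.35 to 0.28). The intervals of Casq2 and Pvalb between the suspended groups are narrower than the differences of these genes from control. The inhibitors were less precisely measured, at 0.31 ± 0.34 for Pln (-0.45 to 1.07) and 0.11 ± 0.31 for Sln (-0.59 to 0.80). The median size of the 9 differences, with sign left out, was 0.09, and 0.11 over all genes. For suspension minus control it was 0.50 for the 9 and 0.16 over all genes.

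The count of genes whose groups did not overlap was read against the same count over all genes. With 4 suspended arrays against 2 controls, 3 of the 9 genes did not overlap (Atp2a1 and Pvalb higher, Casq2 lower), where 24.8% of all genes did not. For suspension minus control it was 6 of 9, where 39.8% of all genes did not overlap, and for suspension with electroacupuncture minus control it was 4 of 9, where the share was 41.8%. Between suspension with electroacupuncture and suspension it was 3 of 9, where the share was 32.6%. By the adjusted p, 2 of the 9 were called with all 4 suspended arrays against control, where 2.18% of all genes were.

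Other calcium genes moved in few cases. Of 57 further genes of calcium handling written down for this tissue, 48 were measured, and 2 rose and 0 fell in suspension, against 0.537% of all genes that rose. Their median difference was -0.04, and 0.01 over all genes. In suspension with electroacupuncture 1 rose and 0 fell, against 0.446% of all genes that rose. Slc8a3, a sodium-calcium exchanger that exports calcium from muscle fibres, had signals of 7.14 and 7.03 in suspension with electroacupuncture, 7.10 and 7.30 in suspension, and 6.07 and 6.14 in control. It rose by 1.09 ± 0.14 in suspension (adjusted p = 0.0128) and by 0.98 ± 0.14 in suspension with electroacupuncture (adjusted p = 0.0164). The release channel gene Ryr1 had signals of 11.18 and 11.21 in suspension with electroacupuncture, 11.48 and 11.47 in suspension, and 10.55 and 10.61 in control. It rose by 0.89 ± 0.12 in suspension (adjusted p = 0.0183), and its difference with electroacupuncture was 0.61 ± 0.12 (adjusted p = 0.0606). The latter passed with genes at or above the median signal alone (0.0367), quantile normalization again (0.03) and cyclic loess (0.0316). Between the suspended groups the Ryr1 difference was -0.28 ± 0.12 and did not pass. For suspension with electroacupuncture minus control, the adjusted p of Slc8a3 was 0.195 and 0.144 without electroacupuncture array 1 or 2. For suspension minus control, without suspension array 1 or 2 the adjusted p was 0.0621 and 0.0874 for Slc8a3 and 0.139 and 0.142 for Ryr1. Ryr1 also missed the threshold without electroacupuncture array 1 or 2, where its difference stayed 0.89, and in a fit of the 2 groups alone (adjusted p = 0.0645). With every cluster tested by itself, adjusted p for suspension minus control was 0.116 for Ryr1 and 0.126 for Slc8a3. For Slc8a3 with electroacupuncture it was 0.136.

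With both suspended groups against control, Trdn also rose, by 0.71 ± 0.15 (adjusted p = 0.0448), so that 3 of the 48 were called higher and 0 lower, where 1% of all genes were called higher and 1.18% lower. In that comparison Ryr1 missed the threshold without any 1 of the 4 suspended arrays (adjusted p from 0.0576 to 0.0707). Triadin, the product of Trdn, ties calsequestrin to the release channel. The gene has 19 transcript clusters on the array, and the mean of them gave 0.28 (adjusted p = 0.49), and the call was lost without any 1 array (adjusted p from 0.0513 to 0.197). Asph, whose locus also encodes junctin, another anchor of calsequestrin, differed by -0.53 ± 0.13 (adjusted p = 0.0742), and the luminal calcium binder gene Calu by -0.61 ± 0.14 (adjusted p = 0.0648). Of 13 listed genes of pump regulators and related proteins, such as Tmem38b, 9 were measured and none passed. Strit1, Erln, Arln and Tmem38a of that list were not measured. S100a1, which encodes an activator of the pump, differed by -0.53 ± 0.19 (adjusted p = 0.223). Its control signals were 10.3 and 11.01, and with an array left out its difference ran from -0.88 to -0.18. The kinase gene Camk2a differed by 0.41 ± 0.12 (adjusted p = 0.136).

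**Figure D4:**
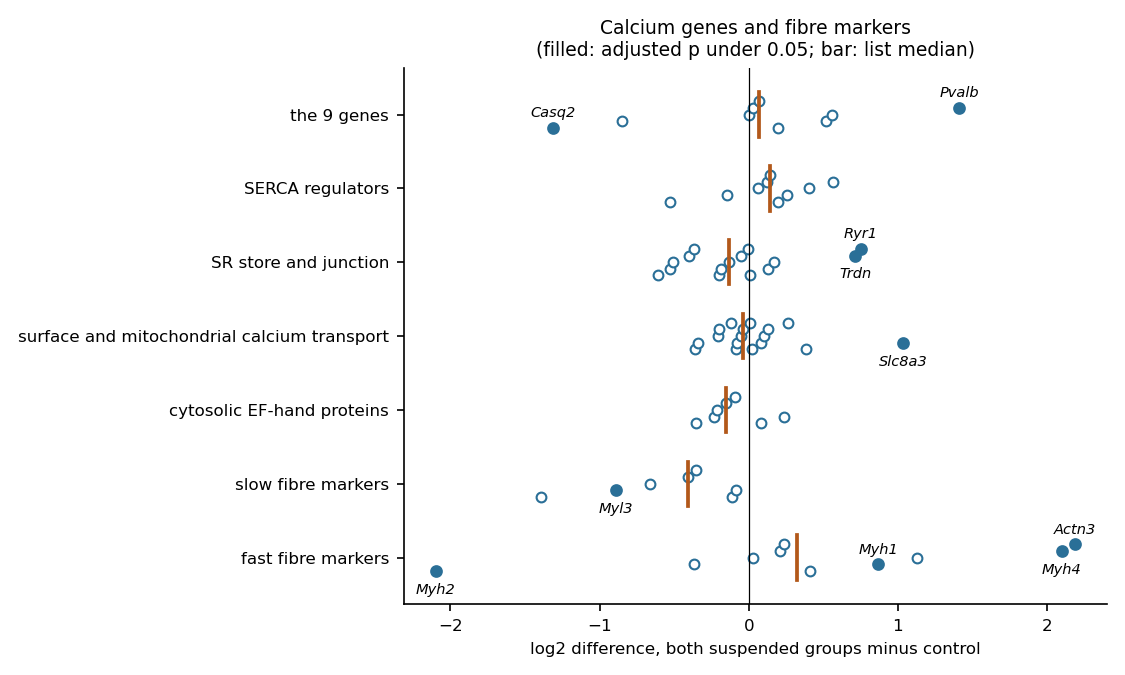
Log2 difference of both suspended groups minus control for the 9 genes, the other calcium genes by list, and fibre-type markers; filled points have an adjusted p under 0.05 and bars are list medians. The medians of the calcium lists lie from -0.15 to 0.15, with Ryr1, Trdn and Slc8a3 called, and those of the slow and fast fibre markers at -0.41 and 0.33.

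Markers of slow and fast fibres were set beside these results. The mean signal of 7 slow-fibre markers was 10.75 and 11.27 in suspension with electroacupuncture, 10.86 and 10.95 in suspension, and 11.31 and 11.71 in control. The mean of 10 fast-fibre markers was 11.58 and 11.49 in suspension with electroacupuncture, 11.57 and 11.63 in suspension, and 11.23 and 10.96 in control. Of the fast markers 3 rose and 1 fell in each suspended group against control: Actn3, Myh4 and Myh1 rose, and Myh2, the myosin gene of oxidative fast fibres, fell. Of all genes 0.446% were called higher and 0.587% lower with electroacupuncture, and 0.537% higher and 0.512% lower in suspension. Of the slow markers 1, Myl3, fell with electroacupuncture (-1.0 ± 0.17, adjusted p = 0.0377) and none passed for suspension. In suspension Myl3 differed from control by -0.78 ± 0.17 (adjusted p = 0.087). Between the suspended groups its difference was -0.22 ± 0.17 and did not pass. All 7 slow markers lay below control in both suspended groups. With an array left out, the Myl3 call held in 1 of 6 fits (adjusted p from 0.0411 to 0.332). The calls of Myh1 held in 1 of 6 fits and those of Myh4 in 2 of 6 in each suspended group taken alone against control. Those of Actn3 and Myh2 held in 4 and 5 of 6 with electroacupuncture and in 5 and 3 of 6 in suspension. The part of fibre-type makeup in the values of Casq2, Pvalb and Atp2a1 was not tested. Of 8 heart markers 6 had a mean above background, taken as the 95th percentile of 1015 olfactory receptor genes, 3.5, and none passed against control. Tnnt2 ran from 6.39 to 7.2, Myh6 from 5.58 to 6.26 and Gata4 from 4.13 to 4.76, all above that level. Nppb ran from 3.59 to 4.43, Tnni3 from 3.65 to 3.79 and Nppa from 3.5 to 3.7, while Ryr2, from 3.0 to 3.41, and Tbx5, from 2.29 to 3.11, were below it on all 6 arrays. Of 7 fibroblast and tendon markers 2, Tnmd and Scx, fell with electroacupuncture and 1, Tnmd, fell in suspension. Of 4 endothelium markers 1, Kdr, was called lower with electroacupuncture and 0 in suspension. In suspension Scx differed from control by -0.63 ± 0.16 (adjusted p = 0.124) and Kdr by -0.59 ± 0.17 (adjusted p = 0.158). Between the suspended groups their differences were -0.34 ± 0.16 and -0.69 ± 0.17, and neither passed. With an array left out, the electroacupuncture calls of Tnmd and Kdr held in 4 of 6 fits and that of Scx in 1 of 6, and the suspension call of Tnmd held in 6 of 6. All 9 calcium genes were above background on all 6 arrays, a low bar, since 13709 of the 19938 genes had a mean above it. Sln and Pln, with means of 4.8 and 4.99 over the 6 arrays, were near the median of all gene means, 4.58.

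The genes whose signals most resembled those of a member were sought among 780 genes with a mean at or above the median and a range of at least 1 log2 unit, by Pearson correlation over the 6 arrays. The arrays fall into 3 groups of 2, so a correlation mostly reflects the step between control and suspended arrays. For Casq2 the closest were the ketone body enzyme gene Bdh1 (r = 0.997), Tmem204 (0.989) and the amino acid transporter gene Slc38a2 (0.989). For Pvalb they were the water channel gene Aqp4 (0.997), the fast-fibre Z-disc gene Myoz1 (0.993) and Stat5b (0.993). Bdh1 had signals of 5.33 and 5.17 in suspension with electroacupuncture, 5.49 and 5.52 in suspension, and 7.87 and 7.93 in control. Aqp4 had signals of 5.99 and 6.14 in suspension with electroacupuncture, 6.18 and 6.13 in suspension, and 5.46 and 5.05 in control, so that it shared with Pvalb the lower value on control array 2. For Sln they were Lilrb4a (0.968), the galectin gene Lgals3 (0.959) and Alox5ap (0.953), and for Pln Phlda3 (0.997), Mrps36 (0.989) and Uchl1 (0.987). Phlda3 had 8.49 on control array 1 and 9.34 on control array 2. Among the 9 genes, Atp2a1 and Casq2 had r = -0.98, and Casq2 and Pvalb r = -0.94, over the same 6 arrays.

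**Figure D5:**
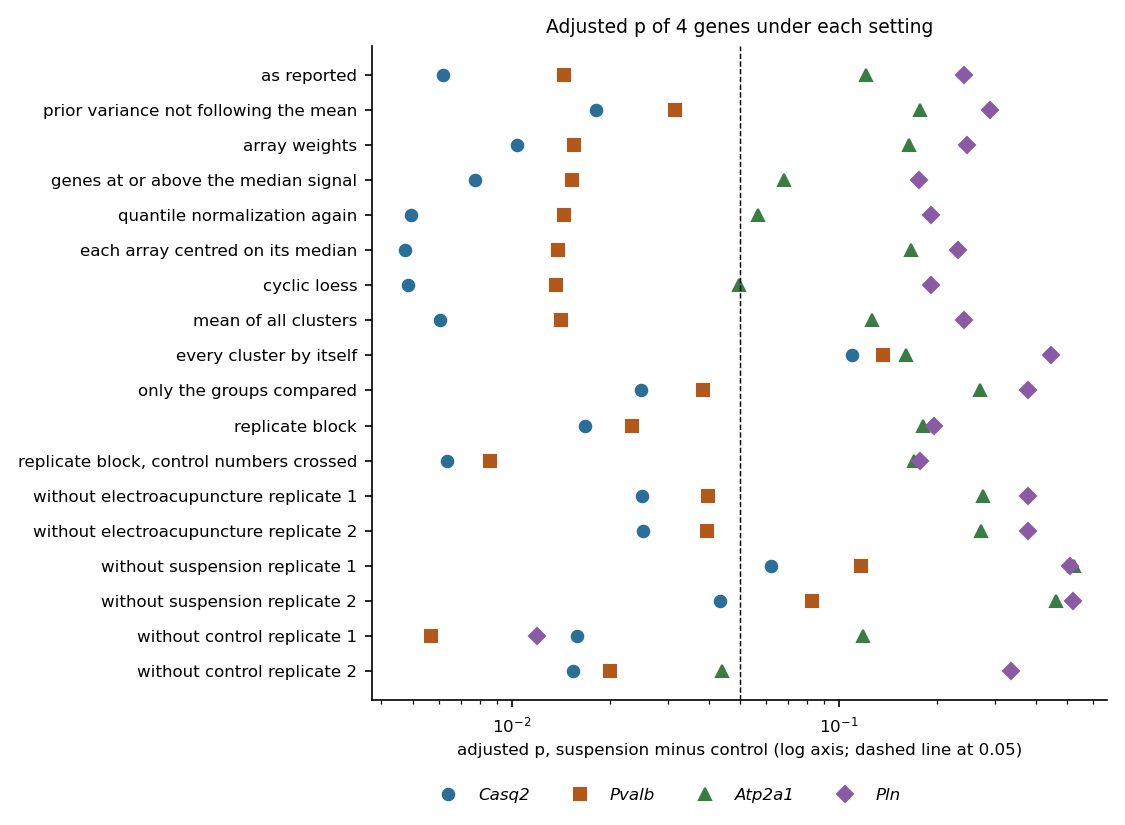
Adjusted p for suspension minus control of Casq2, Pvalb, Atp2a1 and Pln as reported and under each alternative setting, on a log axis with a dashed line at 0.05. Casq2 and Pvalb lie left of the line except with every cluster tested by itself and without suspension array 1, and Pvalb also without suspension array 2, while Atp2a1 and Pln cross it in 3 settings between them.

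The calls of Casq2 and Pvalb were also set against fits with an array left out. For suspension minus control, adjusted p was 0.062 for Casq2 and 0.117 for Pvalb without suspension array 1, and 0.0829 for Pvalb without suspension array 2, with differences of -1.27, 1.41 and 1.6. Set against control with all 4 suspended arrays, both genes passed without each array in turn, with differences from -1.36 to -1.25 for Casq2 and from 1.14 to 1.69 for Pvalb. Fits with an array left out have 2 residual degrees of freedom in place of 3. The group left with 1 array then gives no spread of its own and is assumed to vary like the other groups.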

How the data were processed

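Total RNA of soleus was extracted with Trizol, labelled with biotin and hybridized to 6 arrays, per the labels' protocols. Per the submitters' processing notes, the authors computed log2 signals by RMA in Affymetrix Expression Console; no version is given. The deposited log2 values of 35556 transcript clusters were used as they stood. Clusters were joined to genes through the platform annotation: 21789 had 1 symbol, 1621 several and 12146 no listed gene. Those with several or none were left out, and the cluster of highest mean was kept per symbol, which left 19938 genes.

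Groups came from the sample titles. limma 3.58.1 in R 4.3.3 was fitted over all 6 arrays with a variance prior that follows the mean signal, and was tested on simulated data. The threshold was an adjusted p of 0.05. The members, lists and motifs were chosen with earlier results of these data known. Named genes were the 9 members, called genes of each list, up to 4 more of smallest p, and the 3 genes most like each member whose range was at least 1; the 8 heart markers are named as defining markers, and Aqp4, Bdh1 and Phlda3 were given values after these were seen. Duplicate numbers were checked for pairing. The number of arrays limits precision. No protein sequence or genome was used here.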

Additional observations from a re-analysis of the deposited data

How the results depend on the processing

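Of 60 values of Casq2 and Pvalb against control under alternatives that keep all arrays, 54 kept their call and 6 lost it, all 6 with every transcript cluster tested by itself, where 35556 clusters are tested and 0 members passed in each comparison with control. Of 36 values with an array left out, 28 kept the call and 8 lost it, and the direction held in all of both. Members called then ran from 0 to 3 for suspension minus control and for suspension with electroacupuncture minus control. For suspension with electroacupuncture minus control, adjusted p was 0.0657 and 0.0865 for Casq2 and 0.141 and 0.21 for Pvalb without electroacupuncture array 1 and 2, and 0.0502 for Pvalb without suspension array 2. The cause was not tested.

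With quantile normalization again, the Atp2a1 to Atp2a2 ratio differed from control by 0.46 in suspension with electroacupuncture, 0.33 in suspension and 0.4 in both, and without 1 array the last ran from 0.46 to 0.52. Small differences changed sign. With quantile normalization again, suspension with electroacupuncture minus control was 0 for Atp2a2 and 0.01 for Casq1, and both suspended groups minus control was 0.01 for Casq1. Without 1 array, Casq1 ran from -0.02 to 0.05 (suspension minus control), -0.1 to 0.06 (suspension with electroacupuncture minus control), -0.04 to 0.04 (both minus control) and -0.12 to 0.05 (between suspended groups). Between suspended groups Sln ran from -0.28 to 0.5 and Srl from -0.08 to 0. Suspension with electroacupuncture minus control ran from -0.11 to 0.01 for Atp2a2 and -0.05 to 0.1 for Hrc, and both minus control from -0.03 to 0.08 for Atp2a2 and 0 to 0.14 for Hrc.

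Over all genes, 209 were called for suspension minus control, against 80 with a prior variance not following the mean, 130 with array weights, 68 with only the groups compared, 1 with every cluster by itself and 16 to 301 with an array left out. For suspension with electroacupuncture minus control it was 206, against 101, 172, 129, 1 and 2 to 299 in the same order. For both minus control it was 435, against 229 with the prior, 250 with weights, 1 with every cluster and 93 to 569. Between suspended groups it was 0, against 4 with array weights, 3 with only the groups compared and 0 to 3 with an array left out. With the replicate block the counts were 102 for suspension, 127 with electroacupuncture and 258 for both, and 2 members were called in each. The differences between duplicates correlated at -0.0157 between the suspended groups, -0.1621 between suspension and control and 0.0168 between electroacupuncture and control. These correlations cannot settle whether arrays of the same number were handled together. A crossed pairing, chosen after seeing the data, called 266 genes for suspension minus control.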
